A study of Sus scrofa with 15 samples.

Results

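Genes of the NK cell activation machinery were followed: the 3 receptor genes *NCR1*, *NCR3* and *FCGR3A*, and the 4 adaptor genes *CD247*, *FCER1G*, *TYROBP* and *HCST*. They were chosen by gene symbol from the deposited count table, which held 1 row for each of the 7 among its 29886 genes. All 7 passed the filter on low counts, as did 10939 genes in all. The 15 libraries came from 5 donor pigs aged 6 months, for which no treatment is named, with 3 NK cell populations sorted from each animal. Blood NK cells were CD3-negative, CD172a-negative and CD8α-high. The cells labelled conventional liver NK had the same surface phenotype and were flushed from the portal vein of the liver, and the cells labelled liver resident NK (lrNK cells) came from the same flush but were CD8α-dim. Each library stands for the pooled sorted cells of 1 pig, the populations were defined by surface CD8α, and the source field of all 15 samples names PBMC although the titles distinguish liver from blood.

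NK cells read activating ligands through receptors that bind outside the cell and cannot signal alone. NKp46 (encoded by *NCR1*), NKp30 (*NCR3*) and the low-affinity IgG receptor CD16 (*FCGR3A*) associate in the membrane with CD3ζ (*CD247*) and the Fc receptor γ chain (*FCER1G*), whose ITAM motifs recruit the kinases SYK and ZAP70. DAP12 (*TYROBP*) is another ITAM adaptor, which serves NKp44 (*NCR2*) and a set of lectin-like and immunoglobulin-like receptors. DAP10 (*HCST*) carries a YxNM motif in place of an ITAM, engages PI3-kinase and GRB2, and is the partner of NKG2D (*KLRK1*). The question asked here was whether the transcripts of each receptor and of its adaptor moved together between the 3 populations.

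Library totals lay between 2003499 and 5680221 counts. *CD8A*, which encodes the chain used for sorting, had 228.7 to 633.7 CPM (counts per TMM-scaled library size) in the blood libraries, 275.9 to 596.2 CPM in the liver CD8α-high libraries and 29.5 to 57.0 CPM in the lrNK libraries, in the order of the sort. Over the 500 genes of largest variance, principal component 1 held 69% of the variance and placed the lrNK libraries apart. Among the lrNK libraries that of pig 3 stood apart on the second component, at 35.2 against -16 to -3.16 in the other 4, and among the liver CD8α-high libraries that of pig 1 lay at -8.51 on the first component against -37.2 to -24.9. In the lrNK library of pig 3, *CXCR6*, a marker of lrNK cells in the study, was at 86.2 CPM, against 606.7 to 836.6 CPM in the other 4. Its *TBX21*, low in lrNK cells in the study, was at 80.9 CPM, against 200.8 to 246.3 CPM. Its *EOMES*, another lrNK marker, was at 713.2 CPM, within the range of 441.6 to 812.8 CPM. Summed levels of a B cell marker list were 435.9 to 1007 CPM in the lrNK libraries, 21.2 to 162.5 CPM in blood and 4.06 to 53.9 CPM in liver CD8α-high cells, with *CD79A* at 0 in every library and counts for the other 5 of the 6 genes in each population; the part of such cells in the results below was not tested. Myeloid cells and mast cells also use *FCER1G* or *TYROBP*. The 14 monocyte and macrophage markers listed summed to 0.682 to 13.0 CPM in blood, 1.32 to 4.74 CPM in liver CD8α-high and 0 to 30.3 CPM in lrNK libraries, with *CSF1R*, *CD163*, *MARCO*, *C1QA*, *C1QB* and *CD5L* at 0 throughout. *LYZ* was called higher in lrNK than in liver CD8α-high cells (0 to 25.6 against 0 to 1.04 CPM, adjusted p = 0.0272, edgeR). With the pig as a block *LYZ* was not called there (adjusted p = 0.0512, edgeR). The 5 mast cell and basophil markers summed to 4.70 to 11.3, 1.03 to 7.65 and 5.40 to 82.6 CPM in the same order, with *KIT* at 1.25 to 82.6 CPM in lrNK libraries, and the 5 dendritic cell markers to 6.30 to 32.8, 5.87 to 23.2 and 21.2 to 34.0 CPM, with *CLEC9A* and *CLEC10A* at 0 throughout. *XCR1* of the dendritic list had 4.32 to 11.7 CPM in lrNK libraries against at most 0.271 CPM in blood and 0.345 CPM in liver CD8α-high libraries, and was called higher in both comparisons (adjusted p = 2.31e-04 and 2.281e-04, edgeR). The part of these cells in the results below was not tested.

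Of the receptors, *NCR1* was the gene that was higher in lrNK cells. This gene lies on chromosome 6 of Sscrofa11.1 from 59092258 to 59099992. Its level in blood NK cells was 100.5, 49.6, 26.3, 32.2 and 45.4 CPM in pigs 1 to 5, and 167.1, 40.6, 34.9, 19.8 and 11.2 CPM among the conventional liver cells. The lrNK libraries of the same 5 pigs held 356.3, 248.2, 156.4, 297.1 and 353.1 CPM. Every lrNK library thus lay above every blood library, whereas the liver CD8α-high library of pig 1 reached into the lrNK range. The means were 50.8 ± 29.4, 54.7 ± 63.9 and 282 ± 83.3 CPM (SD, n = 5) in blood, liver CD8α-high and lrNK cells. The log2 fold change of lrNK against blood libraries was 2.47 with a standard error (SE) of 0.53 (adjusted p = 0.00184; edgeR quasi-likelihood test, adjusted by Benjamini-Hochberg over the 10939 genes), that is 5.55-fold. Within the pigs the lrNK level was 3.54, 5, 5.94, 9.24 and 7.78 times the blood level. Against liver CD8α-high cells the log2 fold change was 2.39 (SE 0.52, adjusted p = 0.00287, edgeR), and without the liver CD8α-high library of pig 1 it was 3.41 (adjusted p = 4.338e-06, edgeR). In that library *EOMES* and *CXCR6*, which mark lrNK cells in the study, were at 217.5 and 153 CPM, against group means of 72.1 and 49.0 CPM that include it. The blood and lrNK libraries of pig 1 were also the highest of their groups in *EOMES*, at 74.0 and 812.8 CPM. They were not the highest in *CXCR6*, at 0 and 700.2 CPM. The cause was not tested.

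*NCR3* went the other way. It lies on chromosome 7 from 23713333 to 23716988. Blood NK cells of pigs 1 to 5 had 41.7, 77.0, 43.7, 26.4 and 29.7 CPM of *NCR3*, against liver CD8α-high values of 43.2, 62.5, 49.4, 15.9 and 34.6 CPM in the same order. In lrNK cells the values were 3.74, 12.5, 8.77, 1.97 and 3.40 CPM, from only 7 to 26 counts per library. All 5 lrNK libraries were below all 10 CD8α-high libraries. The mean fell from 43.7 ± 20.1 CPM (SD, n = 5) in blood to 6.07 ± 4.41 CPM in lrNK cells, and was 41.1 ± 17.4 CPM in liver CD8α-high cells. The test against blood gave a log2 fold change of -2.91 (SE 0.47, adjusted p = 1.096e-04, edgeR), a 7.52-fold lower level, and within the pigs it was lower by 11.2, 6.17, 4.98, 13.4 and 8.74 times. Against liver CD8α-high cells the log2 fold change was -2.82 (SE 0.46, adjusted p = 1.869e-04, edgeR). The whole *NCR3* interval of 3656 bases falls inside the annotated span of *AIF1*, a macrophage gene that had 80 counts over the 15 libraries against 1605 for *NCR3*. Of these, 44 were in blood, 32 in liver CD8α-high and 4 in lrNK libraries, so that *AIF1* too was lower in lrNK cells than in blood, in 5 of 5 pigs; it was below the filter and not tested. The neighbouring *LST1*, 345 bases away, had 9 to 24 counts in each blood library and 0, 3, 0, 0 and 0 counts in the lrNK libraries. The strand setting of the counting is not given, so reads from overlapping genes cannot be assigned with certainty.

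**Figure D1:**
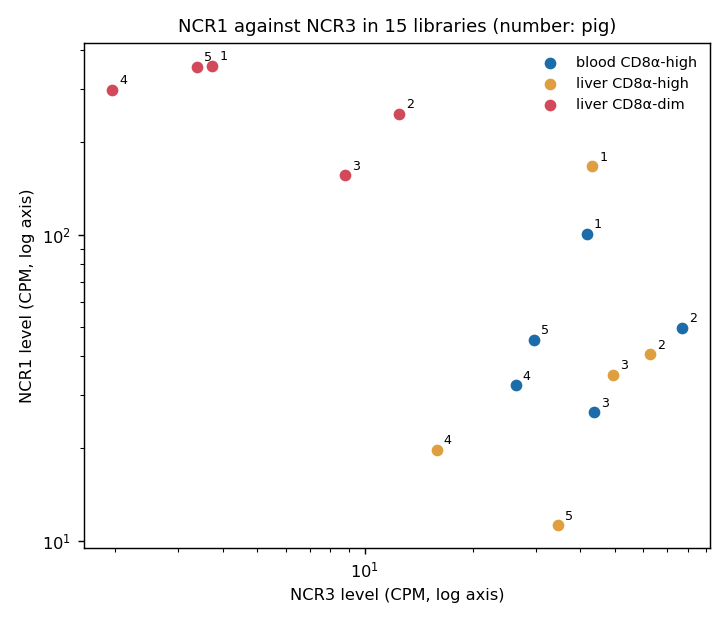
*NCR1* level against *NCR3* level, both in CPM on log axes, with 1 point per library, colour for the population and the number of the pig beside each point. The 5 lrNK libraries occupy the corner of high *NCR1* and low *NCR3*, at 156.4 to 356.3 CPM of *NCR1* and 1.97 to 12.5 CPM of *NCR3*, and the CD8α-high libraries of blood and liver intermingle.

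*FCGR3A*, which encodes CD16, the receptor of antibody-dependent killing, was lower in lrNK cells but was still counted 515 to 2209 times per library there. It lies on chromosome 4 from 88948357 to 88956513. Levels in blood were 1307, 790.8, 773.9, 1100 and 573.2 CPM in pigs 1 to 5, in liver CD8α-high cells 952, 669.5, 733.3, 874.8 and 652 CPM, and in lrNK cells 319, 272.6, 250.9, 620.4 and 237.7 CPM. The lrNK library of pig 4 was above the blood library of pig 5, so those 2 groups overlapped, while the lrNK and the liver CD8α-high libraries did not. The means were 909 ± 291, 776 ± 132 and 340 ± 160 CPM (SD, n = 5) in the same order. The lrNK level was 2.67-fold below that of blood (log2 fold change -1.42, SE 0.25, adjusted p = 3.329e-04, edgeR). Within pigs it was lower by 4.1, 2.9, 3.08, 1.77 and 2.41 times. Compared with liver CD8α-high cells the log2 fold change was -1.19 (SE 0.25, adjusted p = 0.00197, edgeR). In sorted bulk cells, a smaller share of cells with a transcript and less of it per cell cannot be told apart, for this gene as for the others.

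Adaptor transcripts moved far less than the receptors. *CD247*, the gene of CD3ζ, lies on chromosome 4 from 83494266 to 83586887. It was at 299.2, 320.4, 274.9, 251.5 and 277.7 CPM in the blood libraries of pigs 1 to 5 and at 264.5, 325.1, 262.9, 254.6 and 323.4 CPM in the liver CD8α-high libraries. The lrNK libraries had 355.5, 331.2, 668.8, 358.3 and 362.3 CPM, all above the CD8α-high libraries, with pig 3 far above the rest. Mean levels were 285 ± 26.1, 286 ± 35.0 and 415 ± 142 CPM (SD, n = 5), and the log2 fold changes of lrNK cells were 0.54 against blood (adjusted p = 0.0379, edgeR) and 0.54 against liver CD8α-high cells (adjusted p = 0.0479, edgeR, or 0.0584 with the pig as a block). Both rested on pig 3: without its lrNK library the log2 fold change against blood was 0.32 (adjusted p = 0.0924, edgeR) and against liver CD8α-high cells 0.30 (adjusted p = 0.144). Leaving out pig 1, 4 or 5 also took the adjusted p of the comparison with blood above 0.05, to 0.0578, 0.0863 and 0.0783 (edgeR), and leaving out any 1 of the 5 pigs did so for the comparison with liver CD8α-high cells (0.0504 to 0.296).

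*FCER1G*, the gene of the Fc receptor γ chain on chromosome 4 from 89242467 to 89246344, was at much the same level in the 3 populations. It ranged from 253.3 to 421.7 CPM in blood, from 262.3 to 331.8 CPM in liver CD8α-high cells and from 225.1 to 406.1 CPM in lrNK cells. Pigs split 3 higher and 2 lower between lrNK cells and blood. The means were 319 ± 74.0, 309 ± 29.9 and 323 ± 64.3 CPM (SD, n = 5). The log2 fold change of lrNK cells against blood was 0.02, with a 95% interval of -0.34 to 0.38 (adjusted p = 0.965, edgeR). As a fold of the blood level, that interval is 0.789 to 1.298.

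*TYROBP* and *HCST* lie 150 bases apart on chromosome 6, *HCST* from 45304744 to 45309048 and *TYROBP* from 45309199 to 45312562. For *TYROBP*, the DAP12 gene, blood libraries held 155.8, 165.8, 179.9, 145.3 and 105.1 CPM in pigs 1 to 5, liver CD8α-high libraries 192.3, 159.8, 150.3, 120.5 and 126.3 CPM, and lrNK libraries 150.3, 133, 244.1, 136.8 and 171.9 CPM. The 3 ranges overlapped. Blood libraries averaged 150.4 ± 28.4 CPM and lrNK libraries 167 ± 45.6 CPM (SD, n = 5), and the log2 fold change of 0.15 had a 95% interval of -0.25 to 0.56 (adjusted p = 0.669, edgeR). Without the lrNK library of pig 3, the highest of the 15, it was -0.01.

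*HCST*, the DAP10 gene, was slightly lower in lrNK cells. Its levels in pigs 1 to 5 were 437.1, 347.3, 281.7, 263.1 and 271.6 CPM in blood, 385, 327.8, 276.6, 252.8 and 287.3 CPM in liver CD8α-high cells and 264.6, 193.4, 210, 244.9 and 212.9 CPM in lrNK cells. Each pig had less in lrNK cells than in either CD8α-high population, although the group ranges overlapped. Means were 320.1 ± 73.3, 306 ± 51.9 and 225 ± 28.9 CPM (SD, n = 5) in that order. A log2 fold change of -0.51 was found against blood (SE 0.17, adjusted p = 0.0387, edgeR), a 1.42-fold lower level. Leaving out pig 1, 2, 3 or 5, or the lrNK library of pig 3 alone, took that adjusted p above 0.05, to between 0.0576 and 0.187 (edgeR). Over all fits with a pig or a library left out, the log2 fold change against blood ran from -0.60 to -0.43. Against liver CD8α-high cells the log2 fold change of -0.44 was not called (adjusted p = 0.0889, edgeR), but it was with the pig as a block (log2 fold change -0.43, adjusted p = 0.0459). The annotated span of *HCST* shares 2728 bases with *NFKBID*, which had 381 counts over the 15 libraries against 14620 for *HCST*. The *NFKBID* counts were 134 in blood, 196 in liver CD8α-high and 51 in lrNK libraries. It was lower in lrNK cells than in blood in 4 of 5 pigs (log2 fold change -1.21, adjusted p = 0.13, edgeR). Against liver CD8α-high cells it was lower in 5 of 5 (log2 fold change -1.51, adjusted p = 0.0645, edgeR), and it was called in neither.

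**Figure D2:**
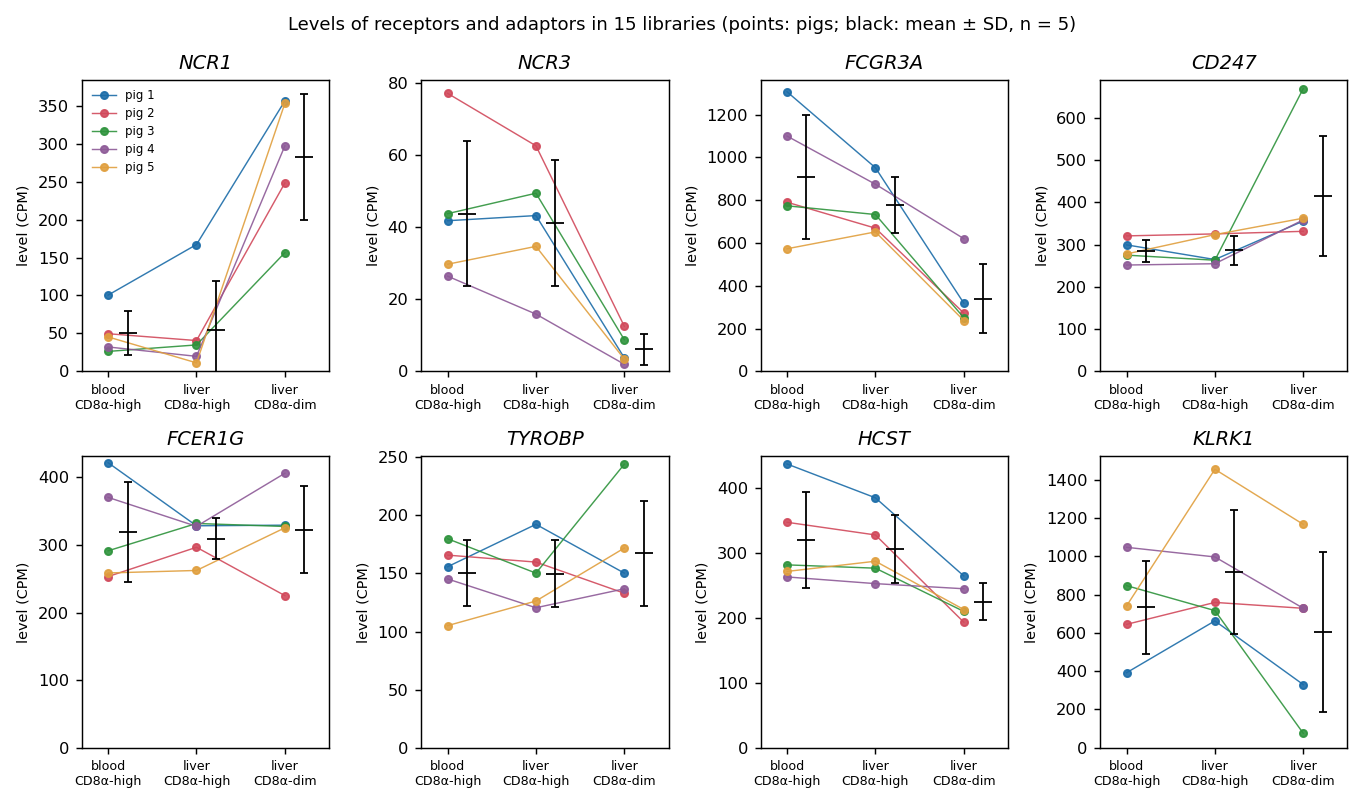
Levels in CPM of the 7 genes and of *KLRK1* in the 15 libraries, with a line joining the 3 libraries of each pig and the mean ± SD of 5 pigs in black (the lower SD bar of *NCR1* in liver CD8α-high cells would pass below 0 and ends at the axis). *NCR1* rises and *NCR3* and *FCGR3A* fall from CD8α-high to lrNK cells in each pig, whereas *FCER1G* and *TYROBP* lines cross; the high *CD247* point at 668.8 CPM is the lrNK library of pig 3.

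In all, 5 of the 7 genes passed the test between lrNK cells and blood, 2 higher (*NCR1*, *CD247*) and 3 lower (*NCR3*, *FCGR3A*, *HCST*), where 18.2% of all genes tested did (8.62% higher and 9.6% lower). The ranges of lrNK and blood libraries did not overlap for 3 of the 7 (*NCR1*, *NCR3*, *CD247*), against 13.5% of all genes. The count was 3 (*NCR1*, *NCR3*, *FCGR3A*) without pig 1, 3 or 5 or without the lrNK library of pig 3. With the pig as a block the same 5 genes passed, against 19.4% of all genes. Between lrNK and liver CD8α-high cells 4 of 7 passed, 2 in each direction, against 14.6% of all genes (6.96% higher and 7.68% lower), and 3 of 7 had ranges that did not overlap, against 11.9%; with the pig as a block 1 was higher (*NCR1*) and 3 were lower (*NCR3*, *FCGR3A*, *HCST*), against 15.7%. The median log2 fold change of the 7 against blood was 0.02, beside 0.01 over all genes tested. These comparisons share the lrNK libraries, and 7 genes chosen with earlier results known give no more than counts.

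**Figure D3:**
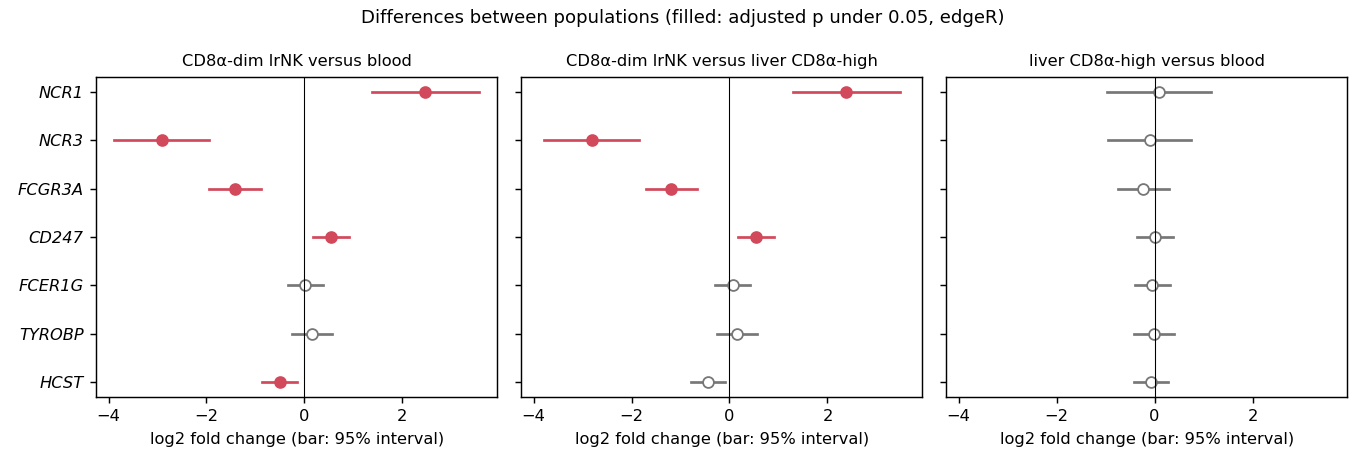
Log2 fold changes of the 7 genes with 95% intervals in the 3 comparisons; filled points had an adjusted p under 0.05 (edgeR). The receptors lie farthest from 0 in both comparisons of lrNK cells, from 2.47 for *NCR1* to -2.91 for *NCR3* against blood, and all 7 intervals include 0 between liver CD8α-high cells and blood.

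Liver CD8α-high NK cells were not distinguishable from blood NK cells in any of the 7 genes. With edgeR, 0 of 7 were called, and 0 had an unadjusted p under 0.05; DESeq2 also called 0. Over all genes 7 of 10939 were called, or 0.064%, and 5.02% had an unadjusted p under 0.05; the ranges of the 2 groups overlapped for all 7 members, while 2.01% of all genes had none. The precision differed between the genes. For *CD247* the 95% interval of the log2 fold change was -0.36 to 0.38, for *FCER1G* -0.40 to 0.31, for *TYROBP* -0.41 to 0.40 and for *HCST* -0.41 to 0.28. For *FCGR3A* it was -0.74 to 0.29. The intervals were widest for *NCR1* (-0.98 to 1.15) and *NCR3* (-0.94 to 0.75). *NCR1* was higher in the liver library in pigs 1 and 3 and lower in pigs 2, 4 and 5, and its log2 fold change turned from 0.09 to -0.94 without the liver CD8α-high library of pig 1 (adjusted p = 0.874, edgeR).

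Each receptor was then set against its adaptors within each library, as the log2 of the ratio of their CPM with a prior count of 2. Reads from the 3′ end of different genes are not comparable as levels, so only the change of a ratio between populations is given. The ratio uses the same counts as the fold changes above and is not further evidence. The *NCR1*/*CD247* ratio in pigs 1 to 5 was -1.57, -2.68, -3.36, -2.94 and -2.60 in blood, -0.66, -2.98, -2.89, -3.64 and -4.78 in liver CD8α-high cells and 0.00, -0.42, -2.09, -0.27 and -0.04 in lrNK cells. It rose in each pig, although the lrNK ratio of pig 3 remained below the blood ratio of pig 1. The mean change from blood to lrNK cells was 2.07 on the log2 scale (two-sided exact permutation test over the 5 against 5 libraries, adjusted p = 0.0366 over 30 ratio tests). For *NCR1*/*FCER1G* it was 2.54, with no overlap (exact permutation test, adjusted p = 0.0265). *NCR1* thus gained on both of its adaptors in 5 of 5 pigs.

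*NCR3* lost ground to the same adaptors. The *NCR3*/*CD247* ratio lay between -3.23 and -2.05 in blood and between -7.13 and -4.67 in lrNK cells, a mean change of -3.38 (exact permutation test, adjusted p = 0.0265). The *NCR3*/*FCER1G* ratio changed by -2.91 (exact permutation test, adjusted p = 0.0265). For CD16 the *FCGR3A*/*FCER1G* ratio was 1.15 to 1.64 in blood, 1.14 to 1.53 in liver CD8α-high cells and -0.45 to 0.61 in lrNK cells, so that the lrNK libraries stood below both other groups. That ratio changed by -1.48 from blood and the *FCGR3A*/*CD247* ratio by -1.95 (exact permutation tests, adjusted p = 0.0265 each). Of the 10 ratios, 8 of them receptor to adaptor and 2 between adaptors, 6 passed between lrNK cells and blood and 7 between lrNK and liver CD8α-high cells, 6 of these 7 receptor to adaptor, while 0 of 10 did between liver CD8α-high cells and blood, where the smallest unadjusted p was 0.19. With 5 libraries a group the smallest p these splits allow is 0.00794. These splits take no account of the pairing by pig. A paired sign-flip test called none of the ratios, and its smallest p with 5 pigs is 0.0625. Between liver CD8α-high cells and blood, *FCGR3A*/*CD247* was lower in the liver in 5 of 5 pigs (mean change -0.19). The *NCR2*/*TYROBP* ratio, on few *NCR2* counts, was higher in 5 of 5 (0.27), and the other ratios went both ways.

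Between the adaptors themselves the changes were smaller. The *FCER1G*/*CD247* ratio was lower in lrNK cells than in blood in 5 of 5 pigs, by 0.47 on the log2 scale, and did not pass (exact permutation test, adjusted p = 0.21). The *TYROBP*/*HCST* ratio was higher in 5 of 5 pigs, by 0.63 against blood (exact permutation test, adjusted p = 0.068) and by 0.58 against liver CD8α-high cells (adjusted p = 0.0265).

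**Figure D4:**
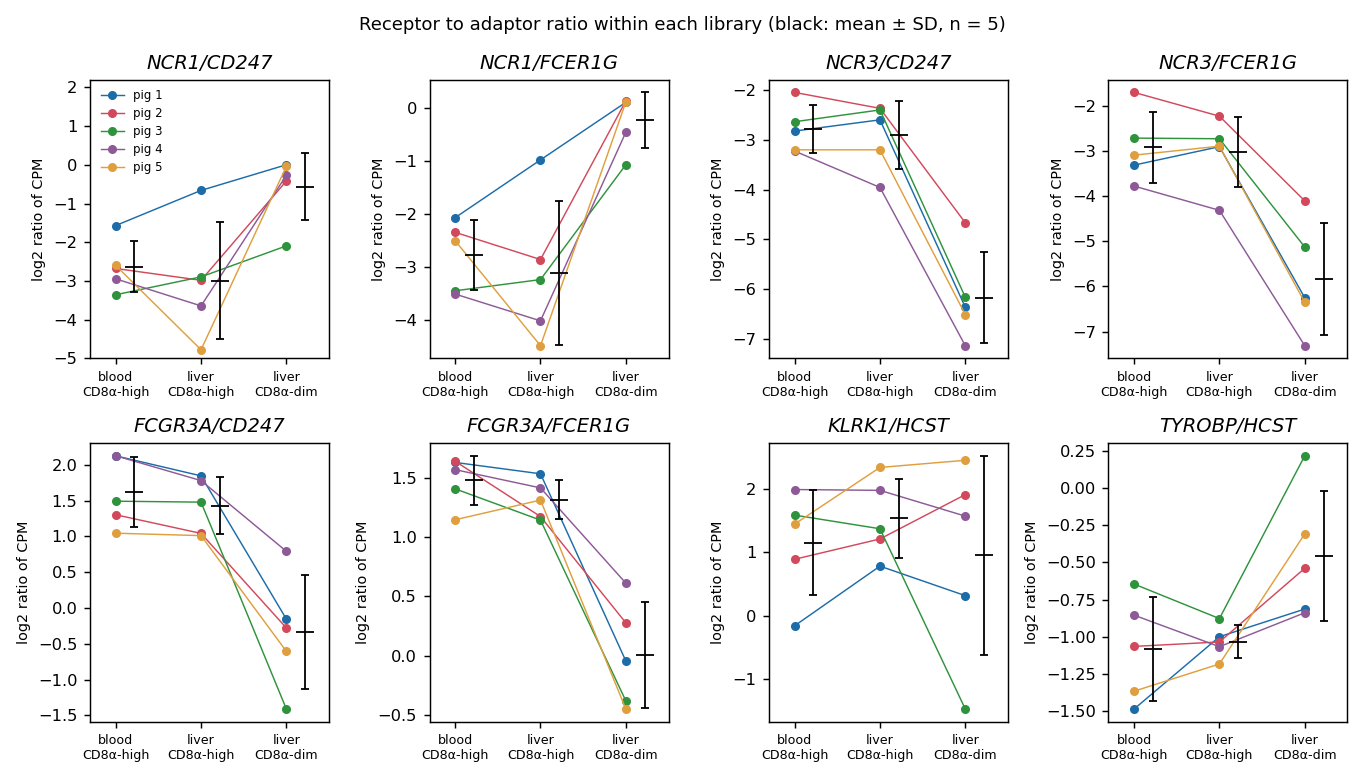
Log2 ratio of receptor to adaptor CPM within each library, with a line per pig and mean ± SD of 5 pigs in black; *TYROBP*/*HCST* compares adaptors with each other. The *NCR1* ratios rise and the *NCR3* and *FCGR3A* ratios fall in lrNK cells in 5 of 5 pigs, and the *KLRK1*/*HCST* ratio goes both ways, down to -1.47 in the lrNK library of pig 3.

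*KLRK1* and *NCR2*, the receptors served by *HCST* and *TYROBP*, were examined in the same way. *KLRK1* is on chromosome 5 from 61646691 to 61655386. It had 392.1, 645, 847.7, 1048 and 741.1 CPM in blood, 663.4, 759.9, 717.1, 997.7 and 1456 CPM in liver CD8α-high cells and 330.2, 729.1, 75.5, 729.3 and 1168 CPM in lrNK cells of pigs 1 to 5. Pig 3 was the lowest of all 15 libraries and the other 4 lrNK libraries spanned much of the CD8α-high range. The log2 fold change of lrNK cells against blood was -0.27, with a 95% interval of -1.16 to 0.61 (adjusted p = 0.729, edgeR), and 0.03 without that library. Against liver CD8α-high cells *KLRK1* was lower in 5 of 5 pigs and not called (log2 fold change -0.60, adjusted p = 0.432, edgeR). The *KLRK1*/*HCST* ratio changed by -0.19 (exact permutation test, adjusted p = 0.887), in 3 pigs upwards and in 2 downwards. *NCR2*, on chromosome 7 from 36545752 to 36553129, had at most 24 counts in a library and a log2 fold change of -0.52 with an interval of -2.10 to 1.05 against blood (adjusted p = 0.709, edgeR). Against liver CD8α-high cells it was lower in 5 of 5 pigs and not called (log2 fold change -0.93, adjusted p = 0.503, edgeR). The *NCR2*/*TYROBP* ratio was lower in lrNK cells in 5 of 5 pigs in both comparisons, with changes of -0.79 and -1.06 on the log2 scale, and did not pass (exact permutation tests, adjusted p = 0.179 and 0.111).

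Downstream of the adaptors, a list of kinases, scaffolds and phosphatases was examined, of which 30 were tested; *ZAP70* was not analysed here. Between lrNK cells and blood 6 were higher and 2 lower, or 26.7% against the 18.2% of all genes, and 22 did not pass. Their median log2 fold change was 0.14, beside 0.01 over all genes. Among those that passed, the largest rise was that of *CBLB*, a ubiquitin ligase that restrains activating signals in lymphocytes. Blood libraries had 172 to 249.3 CPM of it and lrNK libraries 514.6 to 944.1 CPM, a rise of 1.66 on the log2 scale (adjusted p = 9.939e-07, edgeR). *SH2D1B*, the adaptor EAT-2 of SLAM family receptors, averaged 73.2 ± 23.6 CPM (SD, n = 5) against 202 ± 57.2 CPM, a rise of 1.46 on the log2 scale (adjusted p = 0.00397, edgeR). The Src family kinase *FYN* averaged 478 ± 79.1 CPM against 913 ± 186 CPM, a rise of 0.94 (adjusted p = 3.698e-04, edgeR).

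*PTPN6*, which encodes the inhibitory phosphatase SHP-1, rose by 0.91 on the log2 scale (adjusted p = 0.00278, edgeR). *LCP2*, the scaffold SLP-76, rose by 0.82 (adjusted p = 1.694e-04, edgeR). The remaining rise was that of *PLCG2*, named here to complete the count. Each of these 6 genes was higher in 5 of 5 pigs, and lrNK and blood libraries did not overlap. Of the pair that fell, *PLCG1* had 46, 19, 13, 56 and 8 counts in blood and 1, 4, 1, 0 and 7 in lrNK cells of pigs 1 to 5 (log2 fold change -3.20, adjusted p = 0.00723, edgeR), while its relative *PLCG2* was among the rises. The membrane scaffold *LAT* was lower in 4 of 5 pigs (68.9 ± 11.6 against 31.5 ± 22.5 CPM, log2 fold change -1.14, adjusted p = 0.014, edgeR). *SYK*, the kinase that binds phosphorylated ITAMs, was at 88.7 ± 36.5 CPM among the blood libraries, at 70.9 ± 29.5 CPM among the lrNK libraries, and was not called (log2 fold change -0.32, adjusted p = 0.536, edgeR). Against liver CD8α-high cells 6 of the 30 were higher and 2 lower, or 26.7% against 14.6% of all genes. The lower pair there was *PLCG1* and the adaptor *SH3BP2* (log2 fold change -1.30, adjusted p = 0.0119, edgeR), while *LAT* was not called (adjusted p = 0.0627). Between liver CD8α-high cells and blood 0 of the 30 passed with edgeR, against 0.064% of all genes, 2 had an unadjusted p under 0.05, against 5.02%, and 0 passed with DESeq2. With the pig as a block *VAV2* and *VAV3* were also called higher against blood, and *VAV2*, *VAV3* and *SH2D1A* against liver CD8α-high cells.

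**Figure D5:**
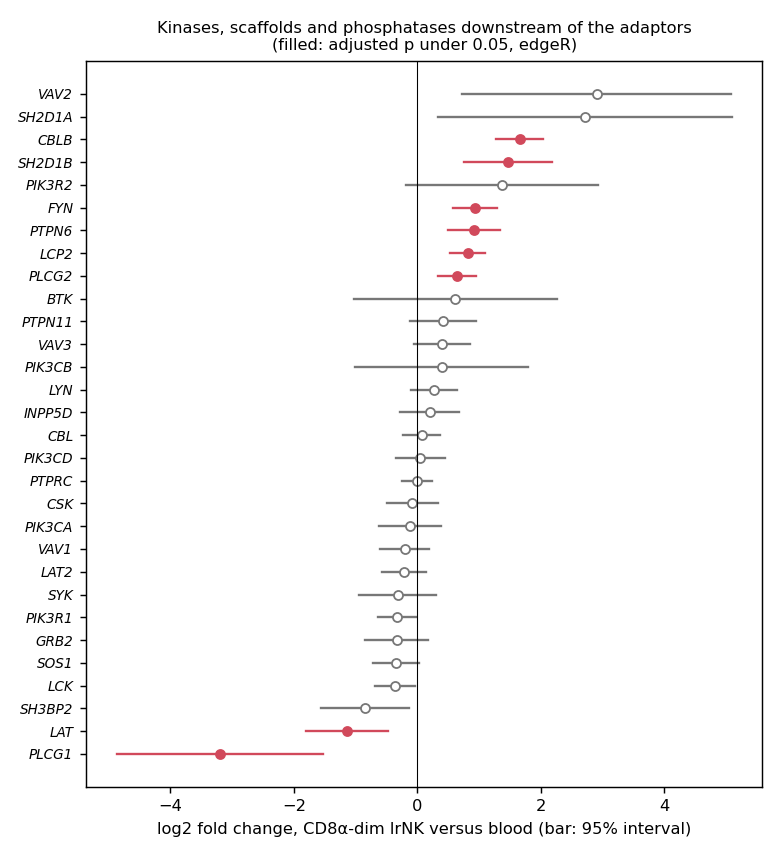
Log2 fold changes of the 30 signalling genes between lrNK cells and blood with 95% intervals, sorted by size; filled points had an adjusted p under 0.05 (edgeR). The 6 filled points on the right run from *PLCG2* at 0.64 to *CBLB* at 1.66, and *LAT* at -1.14 and *PLCG1* at -3.20 are the filled points on the left; *VAV2*, with a wide interval, had 0 to 25 counts in the blood libraries.

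A list of 23 genes of other receptors and receptor chains, *KLRK1* and *NCR2* included, was also examined. Many of them signal through one of these adaptors, but the list also holds inhibitory receptors such as *KIR2DL1* and CD3 chains with signalling motifs of their own. Of these, 16 had a row, 6 of the 16 were at 0 in all libraries and 7 passed the filter. Between lrNK cells and blood 2 of the 7 were called, or 28.6% against the 18.2% of all genes. *KLRD1*, which encodes CD94, was higher in lrNK cells than in blood in 4 of 5 pigs (89.5 ± 59.8 against 26.6 ± 9.96 CPM; log2 fold change 1.76, adjusted p = 0.0355, edgeR). Against liver CD8α-high cells (46.7 ± 46.7 CPM) *KLRD1* was not called (log2 fold change 0.95, adjusted p = 0.308, edgeR), and the ranges overlapped. There 1 of the 7 was called, *CD3G*, or 14.3% against 14.6% of all genes. In the comparison with blood, the number of called genes on this list went from 2 to 1 without pig 2, 3 or 5. *CD3G*, a CD3 chain that meets CD3ζ in the T cell receptor complex, had 628.7, 908.6, 737.8, 1176 and 876.2 CPM in blood and 585.6, 103.7, 109.1, 369.9 and 276.3 CPM in lrNK cells of pigs 1 to 5. It was lower in each pig and the groups did not overlap (log2 fold change -1.58, adjusted p = 0.00216, edgeR). The 8 T cell markers listed, of which *CD3G* is 1, summed to 636.5 to 1203 CPM in blood, 713.7 to 1079 CPM in liver CD8α-high and 109.9 to 593.1 CPM in lrNK libraries. Among the others, *CD3D* had 1.71 to 7.32 CPM in blood and 2.40 to 14.6 CPM in lrNK cells, *CD3E* had 0.271 to 28.0 and 0 to 6.74 CPM, *CD6* and *CD8B* had at most 2.89 CPM in blood and were at 0 in lrNK cells, and *CD4*, *CD5* and *CD28* were at 0 in all libraries. The part of T cells in these values was not tested. *KIR2DL1* and *FCAR* were below the filter and are named because of their values. *KIR2DL1* had at most 1 count in each blood library and 8, 1, 11, 5 and 38 counts in lrNK cells of pigs 1 to 5. *FCAR* had at most 1 count in each blood library and 6, 3, 5, 13 and 22 counts in lrNK cells. *FCAR* was higher in lrNK cells than in blood in 5 of 5 pigs, and *KIR2DL1* in 4 of 5 by its counts, with 1 count in each of these libraries of pig 2. Both were left out of the default fit; in the fit with no filter on low counts *KIR2DL1* was called (adjusted p = 0.0335, edgeR) and *FCAR* was not (adjusted p = 0.0711).

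The genes whose levels followed each of the 7 most closely were looked for among 8115 genes with a mean of at least 10 CPM, by Pearson's correlation of log2 CPM over the 15 libraries. These libraries fall into 2 separate clusters, lrNK and CD8α-high, so a high value can restate a difference between those. For this reason the correlation of the deviations from the population means is given beside it. *NCR1* was closest to *IL18R1* (0.96, deviations 0.89), the gene of an interleukin-18 receptor chain, then *TMEM123* (0.96, 0.88) and *LOC100154053* (0.96, 0.91). *IL18R1* went from 29.8 ± 13.8 CPM (SD, n = 5) in blood to 306 ± 119 CPM in lrNK cells, and like *NCR1* it was high in the liver CD8α-high library of pig 1, at 140.9 CPM. *NCR3* was closest to *LOC106506809* (0.94, deviations 0.74), *CHTOP* (0.93, 0.66) and *SORCS2* (0.93, 0.65). For *FCGR3A* the closest were *S100A13* (0.91, 0.62), *LOC100516295* (0.91, 0.64) and *RAPH1* (0.91, 0.59).

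Among the adaptors, *CD247* was closest to *TADA2A* (0.91, deviations 0.88), *ZCCHC24* (0.91, 0.85) and *WBP1L* (0.90, 0.88). *FCER1G* was closest to *SPCS3* (0.86, 0.88), *BRIX1* (0.78, 0.78) and *PDE6G* (0.75, 0.80). *TYROBP* was closest to *ECE1* (0.86, 0.85), *STX6* (0.85, 0.85) and *NEK6* (0.84, 0.85), and *HCST* to *PAPD5* (0.86, 0.72), *GCAT* (0.83, 0.67) and *SLC19A1* (0.82, 0.61). By the correlation over all libraries, none of the 7 was among the 3 closest genes of another. Of the 6 pairs of *NCR1*, *NCR3* or *FCGR3A* with *CD247* or *FCER1G*, *FCGR3A* with *FCER1G* had the highest correlation of deviations (0.75, against 0.34 over all libraries). The other 5 pairs had deviations from -0.54 (*NCR3* with *FCER1G*) to 0.41 (*NCR3* with *CD247*). Outside these pairs, *NCR1* with *HCST*, named above as the partner of NKG2D, had 0.73 (-0.28 over all libraries). No screen of all genes by deviations was run, so the value of 0.75 has no rank among them.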

How the data were processed

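RNA from 15 FACS-sorted pig NK cell libraries was prepared by the authors with the QuantSeq 3′ FWD kit, trimmed with QuasR and aligned with Rhisat2 to Sscrofa11.1 (the submitters' processing notes name HISAT2). The authors deposited raw read counts per gene. How reads were counted (tool, strand, multiple alignments) is not given in the sources used here. Labels assign all 15 columns to pigs and populations, leaving 0 unmatched. The kit reads each transcript from its 3′ end, so levels of different genes were not compared. Gene positions come from a RefSeq table of the same assembly.

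The test was run with edgeR 4.0.16 under R 4.3.3 (TMM, default filter on low counts by population, quasi-likelihood test, all 15 libraries in 1 fit, group as the only term, Benjamini-Hochberg adjustment over 10939 genes, called at an adjusted p under 0.05). Standard errors are the log2 fold change divided by the square root of F, and intervals are 95%. Ratios (8 of receptor to adaptor, 2 between adaptors) were tested by two-sided exact permutation, adjusted over 30 tests (10 pairs in 3 comparisons). Alternatives were DESeq2 1.42.0, its size factors in edgeR, no filter, a filter at a mean of 10 counts, the pig as a block, a fit of the 10 libraries compared, a prior count of 0.5, and leaving out each pig. Leaving out single libraries was added after seeing the data. Libraries of the same number come from the same animal according to the labels and the study's methods, and deviations from the population means correlated by 0.107 within pigs and by -0.0265 between pigs.

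The genes and lists were chosen with earlier results of these data known. Named genes are the 7 members, *KLRK1* and *NCR2*, of each list those called in lrNK cells against blood (at most the 5 largest per direction), and the 3 most correlated genes of each member; *PLCG2*, *SYK*, *VAV2*, *VAV3*, *SH2D1A*, *SH3BP2*, *CD3D*, *CD3E*, *KIR2DL1*, *FCAR*, the annotated neighbours and the cell markers, such as *LYZ*, *KIT*, *XCR1*, *EOMES* and *CXCR6*, were named outside this rule after their values were seen. A gene of the signalling list was left out of every count and is not reported here. On simulated counts of 10616 genes for lrNK cells against blood, edgeR recovered 74 of 100 genes changed by 2 and 32 of 100 changed by 1 on the log2 scale, with 5 false calls. No pair of libraries of a population looked like a repeated deposit (30 pairs, chi-square per degree of freedom 9.41 to 46.7). Plots used matplotlib 3.10.9 under Python 3.11.15.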

Additional observations from a re-analysis of the deposited data

Results flagged for a closer look

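Of 57 groups of 5 values examined for an isolated highest or lowest value, 4 held one, and chance alone gives about 1 in 20. *NCR1* in liver CD8α-high cells was highest in pig 1, at 167.1 CPM, with the next library at 40.6 CPM. *FCGR3A* in lrNK cells was highest in pig 4, at 620.4 CPM, with the next at 319 CPM. *CD247* in lrNK cells was highest in pig 3, at 668.8 CPM, with the next at 362.3 CPM. The log2 ratio of *NCR1* to *CD247* in lrNK cells was lowest in pig 3, at -2.09, with the next at -0.42; it holds the same *CD247* value.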

How the results depend on the processing

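The calls of *NCR1*, *NCR3* and *FCGR3A* in both comparisons of lrNK cells kept their direction and passed under every alternative, including each pig left out. Members called against blood, 5 by default, were 3 with no filter and 3 in the fit of 10 libraries, and 3 to 5 with a pig or library left out; the calls lost were those of *CD247* and *HCST*. Of the 10 ratios, the number called fell from 6 against blood and 7 against liver CD8α-high cells to 0 with 4 pigs a group, where fewer splits exist, and was 6 and 5 to 7 with a single library left out. Other partner receptors called against blood were 4 with DESeq2 and 1 to 2 with pigs or libraries left out; against liver CD8α-high cells they were 1 to 2.

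With the replicate block (the pig), *CD247* against liver CD8α-high cells was no longer called (adjusted p = 0.0584, edgeR) and *HCST* was (log2 fold change -0.43, adjusted p = 0.0459); the block changed no other member call. It gave 2 partner receptors called against liver CD8α-high cells and turned *NCR1* between liver CD8α-high cells and blood to -0.17. A paired sign-flip test of the ratios called 0, as its smallest p with 5 pigs is 0.0625.

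Sign changes were confined, among the alternatives run, to results that were not called. With pigs or libraries left out, log2 fold changes against blood ran from -0.0394 to 0.1405 for *FCER1G*, -0.0051 to 0.2598 for *TYROBP* and -0.6362 to 0.0665 for *KLRK1*, and against liver CD8α-high cells from -0.0138 to 0.1506 for *FCER1G* and -0.0153 to 0.2972 for *TYROBP*. Between liver CD8α-high cells and blood they ran from -0.9423 to 0.3306 for *NCR1*, -0.1709 to 0.0096 for *NCR3*, -0.0369 to 0.0619 for *CD247*, -0.1019 to 0.065 for *FCER1G* and -0.1128 to 0.0645 for *TYROBP*; *TYROBP* was at 0.0044 with the stricter filter and 0.0049 in the fit of 10 libraries. Ratio changes of *KLRK1*/*HCST* ran from -0.4983 to 0.5205 against blood and -0.8994 to 0.0267 against liver CD8α-high cells. Between liver CD8α-high cells and blood they ran from -0.9461 to 0.0907 (*NCR1*/*CD247*), -0.8734 to 0.0705 (*NCR1*/*FCER1G*), -0.2066 to 0.0355 (*NCR3*/*CD247*), -0.2196 to 0.0167 (*NCR3*/*FCER1G*), -0.0923 to 0.0201 (*FCER1G*/*CD247*) and -0.0577 to 0.1218 (*TYROBP*/*HCST*). The cause was not tested. *NCR3* in lrNK cells, *NCR2*, *KIR2DL1* and *FCAR* rest on few counts.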
